A study of Homo sapiens with 18 samples.

Results

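Interferon-stimulated genes are the genes that cells switch on when an interferon binds its receptor at the cell surface. Here 44 of them were followed in a breast cancer cell line that lacks GPS2 or carries an active form of AKT. The members were a fixed list of symbols, matched by Ensembl identifier to 44 of the 57448 gene rows of the count table, and the list was drawn up with earlier results of these data known. Of these, 42 passed a filter of 1 CPM (the read count scaled by library size) or more in 3 or more of the 18 libraries and were tested together with all other genes that passed, 15587 in total. CMPK2, a mitochondrial nucleotide kinase, and IFI27, a small mitochondrial protein, did not pass, with 1 to 16 and 3 to 14 reads per library.

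RNA-Seq libraries came from the unmodified MDA-MB-231 line (WT), a human triple negative breast cancer line, and from 3 lines derived from it. KO1 and KO2 are pools of cells in which GPS2 was targeted by CRISPR-Cas9 with separate sets of guide RNAs delivered by lentivirus and selected with puromycin. GPS2 is a subunit of a transcriptional corepressor complex that also inhibits an enzyme of ubiquitin chain synthesis. MB231-myrAKT cells (myrAKT) express myristoylated, constitutively active AKT from a retroviral vector with a puromycin marker. KO1 and KO2 cells were also collected after 4 h in 10 µM MK2206, an allosteric AKT inhibitor (KO1+MK and KO2+MK). Each of the 6 groups had 3 replicates, and no WT or myrAKT culture received MK2206. The methods name no empty vector in the WT cells, so viral delivery and selection cannot be told apart from loss of GPS2 or from AKT activity in any comparison with WT. No source says whether replicates were separate cultures, so the tests measure the spread between these libraries, which may be technical. In such bulk libraries, and in pools of edited cells, fewer cells that express a gene and less RNA per cell cannot be told apart.

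Type I interferons bind IFNAR1 and IFNAR2, and the kinases JAK1 and TYK2 then phosphorylate STAT2. STAT2 enters ISGF3, a complex with IRF9 that binds the interferon-stimulated response element (ISRE) in the promoters of its targets. The response to interferon gamma runs through a different element, GAS. IRF1 and IRF7 are further factors that can bind ISRE-like sites, and many target genes are read at a low level in cells that have met no interferon. The products degrade viral RNA, sense it, block its translation, hold particles at the membrane or tag proteins with ISG15, a ubiquitin-like modifier.

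RefSeq promoter windows of GRCh38.p14, which cover 250 bases before to 50 bases after each start site, were found for 36 members. The ISRE core was searched as GAAANNGAAA on either strand, and 25 of the 36 members (69.4%) held it in at least 1 window, against 4.38% of all 27305 genes with a window. GAS was searched as TTCNNNGAA, which reads the same on both strands, and was found in 11 members (30.6%) and in 9.38% of all genes. The windows of GBP2, IFIT2, IFITM2, IRF7, OAS2, OASL, TRIM22 and USP18 were not analysed here. The 200 bases just before the start site are shown for 6 members, with every complete ISRE core in capitals, because the first 3 of them rose in myrAKT cells and the other 3 fell there although all 6 hold the element. They lie on GRCh38.p14 at chr10:89392423-89392622 (plus strand) for IFIT1, chr1:1013297-1013496 (plus strand) for ISG15, chr4:168318753-168318952 (minus strand) for DDX60, chr19:17405631-17405830 (minus strand) for BST2, chr10:89414368-89414567 (plus strand) for IFIT5 and chr11:320861-321060 (minus strand) for IFITM3. Each is written from 5′ to 3′ along the strand of its gene, and in IFIT1 and IFIT5 the core lies on the other strand.
IFIT1: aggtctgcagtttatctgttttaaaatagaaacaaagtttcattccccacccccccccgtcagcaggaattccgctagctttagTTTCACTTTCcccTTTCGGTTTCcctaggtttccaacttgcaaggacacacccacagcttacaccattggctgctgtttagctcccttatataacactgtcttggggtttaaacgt
ISG15: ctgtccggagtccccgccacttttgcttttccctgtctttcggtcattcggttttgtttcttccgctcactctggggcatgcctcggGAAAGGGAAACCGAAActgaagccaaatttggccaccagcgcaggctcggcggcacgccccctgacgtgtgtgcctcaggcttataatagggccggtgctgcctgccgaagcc
DDX60: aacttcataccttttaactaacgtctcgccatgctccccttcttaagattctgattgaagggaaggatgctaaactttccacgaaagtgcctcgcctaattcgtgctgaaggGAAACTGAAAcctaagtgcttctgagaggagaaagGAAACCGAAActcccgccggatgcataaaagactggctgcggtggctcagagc
BST2: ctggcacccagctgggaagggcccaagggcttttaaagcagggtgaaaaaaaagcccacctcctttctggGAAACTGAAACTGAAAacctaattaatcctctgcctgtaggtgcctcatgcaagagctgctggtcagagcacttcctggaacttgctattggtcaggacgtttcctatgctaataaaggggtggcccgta
IFIT5: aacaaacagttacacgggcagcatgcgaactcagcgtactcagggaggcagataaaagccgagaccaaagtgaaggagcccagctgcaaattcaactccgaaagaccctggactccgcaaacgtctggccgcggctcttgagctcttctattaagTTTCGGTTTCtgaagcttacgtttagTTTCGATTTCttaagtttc
IFITM3: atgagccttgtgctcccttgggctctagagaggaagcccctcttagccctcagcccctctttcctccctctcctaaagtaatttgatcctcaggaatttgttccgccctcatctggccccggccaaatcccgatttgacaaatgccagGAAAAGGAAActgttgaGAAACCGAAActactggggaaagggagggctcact

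The libraries held 23419198 to 39319910 counted reads, and the 6 MK2206 libraries were shallower than all others, with at most 29939536. Interferon-stimulated genes took 0.155% to 0.16% of the counted reads in WT, 0.133% to 0.137% in KO1, 0.12% to 0.124% in KO2 and 0.171% to 0.176% in myrAKT cells. AKT1 was at 230 ± 12.1 CPM (SD, n = 3) in myrAKT and 135 ± 0.989 CPM in WT cells, a log2 fold change of 0.77 (adjusted p = 4.27e-09, edgeR quasi-likelihood test with Benjamini-Hochberg adjustment over all 15587 genes). GPS2 RNA was not lower in the knockout lines, with 4.56 ± 0.278 CPM in WT, 4.49 ± 0.0366 in KO1 and 6.02 ± 0.123 in KO2, so these counts do not check the knockout labels. VIM, CD44, EGFR, AXL and CAV1, which mark mesenchymal MDA-MB-231 cells, were each above 300 CPM in every library, whereas of the 5 epithelial and receptor genes listed as low in this line CDH1 and PGR stayed under 0.14 CPM, ESR1 was at 0.691 to 1.37, EPCAM at 3.15 to 12.2 and ERBB2 at 79.7 to 93.6 CPM. The blood cell markers PTPRC and CD3E were at or near 0, and CD14, a further one, was at 0.436 to 2.11 CPM. PECAM1, an endothelial gene, was at 21.1 CPM in myrAKT and 3.57 CPM in WT cells. Summed over that marker list the level ran from 2.29 to 23.1 CPM, and its part in the differences of myrAKT cells was not tested.

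The interferons themselves were almost absent from the counts. Of 21 genes for type I, II and III interferons, 18 had no read in any of the 18 libraries, and a count of 0 still allows 3 reads per library. IFNK held 15 reads over all libraries, IFNL1 had 2 and IFNL3 had 2, with at most 5 in 1 library. Of the factors that act downstream of the receptors, STAT2 was at 58.6 ± 4.23 CPM and IRF9 at 2.49 ± 0.387 CPM in WT cells (SD, n = 3).

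Levels among the members spanned a wide range in WT cells, compared per kilobase of exon. IFITM3, which blocks the fusion of viral and endosomal membranes, was highest at 103 CPM per kilobase, and its relative IFITM2 followed at 69.3. UBE2L6, the conjugating enzyme for ISG15, stood at 22.4 and ISG15 at 21.2 CPM per kilobase. At the low end RSAD2 was at 0.218, IFI44L at 0.204, IFI27 at 0.0544 and CMPK2 at 0.0415 CPM per kilobase. Among the 42 members tested, the median coefficient of variation between replicates lay between 4.13% and 5.59% in the 6 groups. The most variable member of WT cells was RSAD2, at 29.3%.

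The first question was which of these genes differed between GPS2 knockout and parental cells. With both lines pooled, 16 of 42 members were lower in KO than in WT cells, and 0 were higher, where the threshold for a call was an adjusted p of at most 0.001. Over all genes tested, 16.6% were called lower and 15.5% higher, and 38.1% of the members were called lower. The median log2 fold change was -0.25 over the members and 0 over all genes. The falls were uneven across roles, with 4 of 5 in the 2-5A synthetase family and ISG20, 3 of 4 membrane proteins, and both RNA helicases, but none of the 4 IFIT genes. The 0 called higher holds for the pooled edgeR fit, in which the difference between the lines counts as error. With KO1 and KO2 as separate groups, edgeR called 5 members higher and 23 lower, against 23.8% and 26.2% of all genes, and DESeq2 on the pooled groups called 2 higher and 19 lower, against 20.7% and 20.8%. In the pooled edgeR fit, over all genes, 31.4% had an unadjusted p under 0.05 with a positive change.

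**Figure D1:**
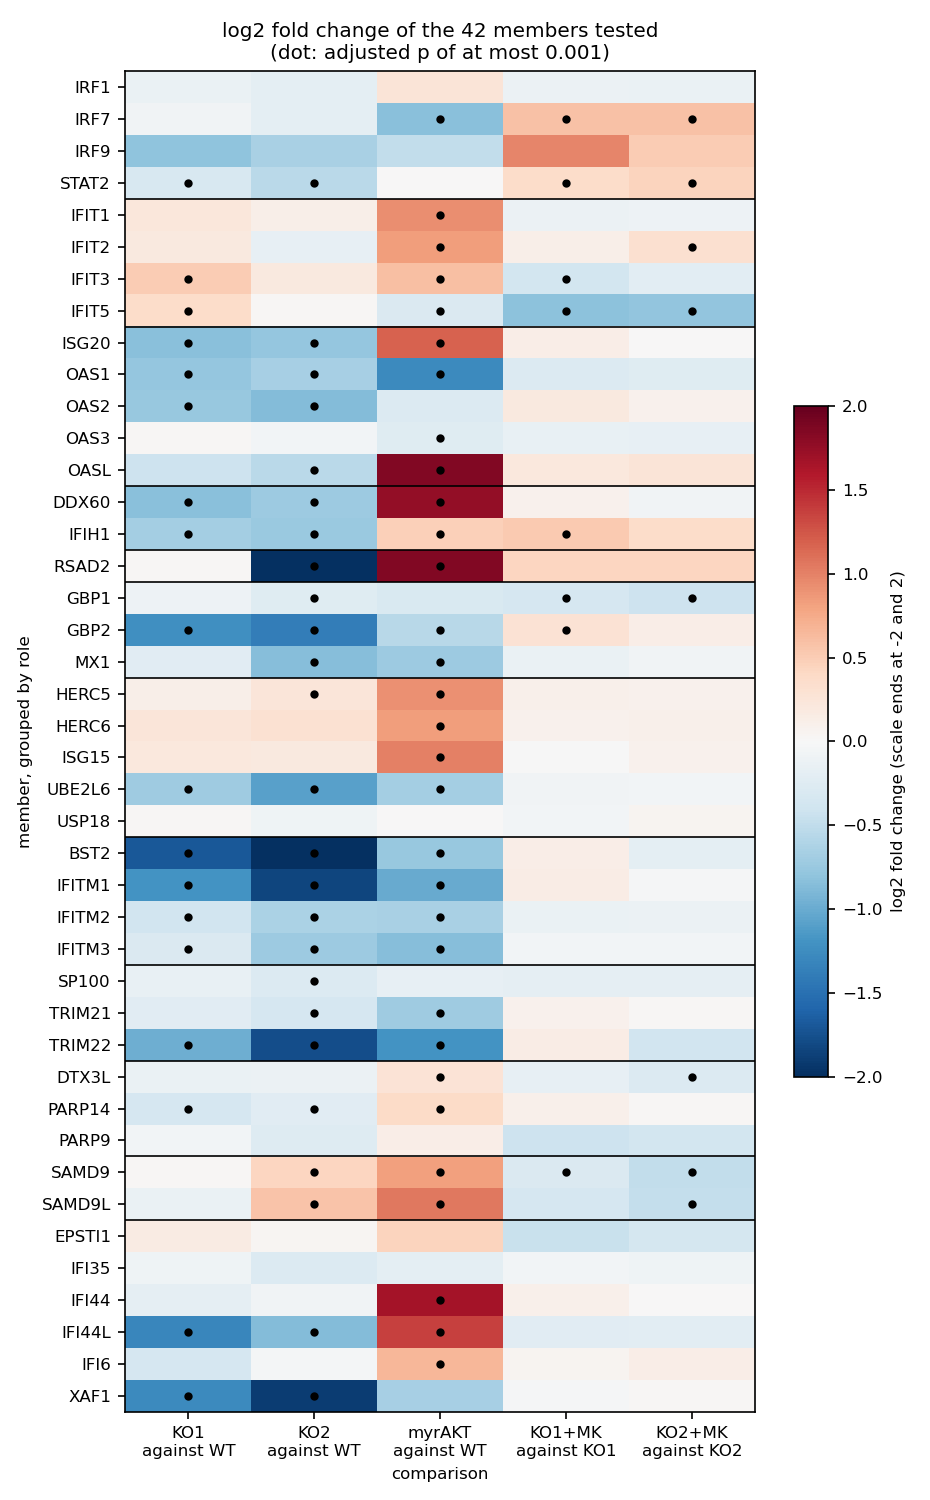
Log2 fold change of the 42 members tested (rows, grouped by role) in 5 comparisons (columns), where red is higher and blue lower in the first group named and a dot marks an adjusted p of at most 0.001. The membrane proteins BST2, IFITM1, IFITM2 and IFITM3 are blue in KO1, KO2 and myrAKT, while DDX60, OASL, ISG20 and IFI44L are blue in the knockout lines and red in myrAKT.

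BST2, or tetherin, a protein that holds budding virus particles on the cell surface, showed the largest fall. Its gene lies on chromosome 19 of GRCh38 (17402939 to 17405630, minus strand). The WT libraries had 15.7, 16.4 and 16.3 CPM, KO1 had 4.81, 5.15 and 5.25, and KO2 had 1.97, 2.47 and 2.31. All 6 KO libraries lay far below WT, and the lines did not overlap with each other either. The fitted fall was 4.47-fold (log2 fold change -2.16, standard error 0.262, adjusted p = 2.9e-05).

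IFITM1, which restricts virus entry at the plasma membrane, was at 25.9, 26.5 and 26.2 CPM in WT, at 10.4, 13 and 11.6 in KO1 and at 7.31, 7.1 and 7.72 in KO2. The groups did not overlap, and the pooled fall was 2.79-fold (log2 -1.48, standard error 0.167, adjusted p = 1.67e-05). IFITM2 fell by 0.50 on the log2 scale (adjusted p = 0.000173), a call that ended without any of the 3 WT libraries in turn. IFITM3 had a pooled log2 fold change of -0.49 with an adjusted p of 0.00341, but was called lower in each line alone, at -0.29 in KO1 and -0.72 in KO2. IFITM1, IFITM2 and IFITM3 are near-identical neighbours on chromosome 11, and how reads that fit several of them were counted is not given in the sources used here, so their shares are uncertain.

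XAF1, an antagonist of the apoptosis inhibitor XIAP, was at 7.17, 5.59 and 5.13 CPM in WT, 2.37, 2.24 and 2.9 in KO1 and 1.49, 1.59 and 1.71 in KO2. Every KO library was below every WT library (log2 fold change -1.56, standard error 0.192, adjusted p = 3.27e-05). XAF1 shares 38.3% of its exon bases with PRAL, an antisense transcript that held 4.89 reads per library on average, and without the strand of the counting their reads cannot be told apart. TRIM22, a ubiquitin ligase with antiviral activity, was at 5.15, 3.89 and 4.3 CPM in WT, 2.16, 2.32 and 2.43 in KO1 and 1.11, 1.54 and 1.25 in KO2. Its fall (log2 -1.32, standard error 0.224, adjusted p = 0.000353) was no longer called when any 1 of the 3 WT libraries was left out, with a highest adjusted p of 0.00327 and a log2 fold change between -1.42 and -1.2. GBP2, an interferon-induced GTPase, fell 2.48-fold, from 50.9 ± 2.72 CPM in WT to 20.8 ± 1.77 in KO (n = 3 and 6, adjusted p = 1.16e-07).

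The remaining falls were smaller and included several enzymes that sense or destroy RNA. The 2-5A synthetases make the signal that activates RNase L, and OAS1 fell by 0.73 and OAS2 by 0.82 on the log2 scale, whereas OAS3 had a log2 fold change of -0.02. ISG20, an exonuclease, fell by 0.81. OASL, a relative that enhances RIG-I signalling, fell by 0.49 (adjusted p = 0.000802). Leaving out any 1 library other than WT replicate 1 ended the OASL call, with a highest adjusted p of 0.00796. The helicases DDX60 and IFIH1 (MDA5, a sensor of long double-stranded RNA) fell by 0.79 and 0.72. UBE2L6 fell by 0.89, IFI44L by 1.08 and PARP14, an ADP-ribosyltransferase, by 0.29, of which the PARP14 call ended without WT replicate 2 or 3.

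Of the transcription factors, STAT2 was called in the pooled fit. It lies on chromosome 12 (56341597 to 56360203, minus strand) and was at 62.7, 59 and 54.3 CPM in WT, 46.4, 49.6 and 46.7 in KO1 and 40.5, 40.2 and 41 in KO2. The libraries did not overlap, and the fall was 1.35-fold (log2 -0.43, standard error 0.0742, adjusted p = 0.000382). Without WT replicate 1 or 2 the STAT2 call ended, with a highest adjusted p of 0.00318. IRF9, the DNA-binding partner of STAT2 in ISGF3, was at 2.87, 2.52 and 2.09 CPM in WT 1.58, 1.67 and 1.05 in KO1 and 1.17, 1.83 and 1.77 in KO2, which did not overlap with WT. Its log2 fold change of -0.74 had an adjusted p of 0.00485 in the pooled fit and was called with KO1 and KO2 as separate groups, and its exons share 1544 bases with another gene on the same strand. IRF1 was at 38.4, 43.8 and 41.8 CPM in WT, 36.9, 39.6 and 38.2 in KO1 and 38.7, 35.3 and 35.6 in KO2 (adjusted p = 0.0182), with 2805 exon bases shared with the antisense transcript IRF1-AS1. IRF7 was at 13.4, 13.3 and 13 in WT, 12.8, 12.6 and 13.1 in KO1 and 12.8, 11 and 11.2 in KO2, of which KO1 overlapped with WT (adjusted p = 0.109).

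The remaining members were not called in the pooled comparison, with log2 fold changes above 0, near it or, as for MX1 and RSAD2, further below it. ISG15 was at 18.5, 19.1 and 17.6 CPM in WT, 22, 20.5 and 22.4 in KO1 and 20.2, 20.7 and 22.4 in KO2, above WT in each library but with an adjusted p of 0.00792. The IFIT proteins bind viral RNA and block its translation, and their pooled log2 fold changes were 0.17 for IFIT1, 0.02 for IFIT2, 0.35 for IFIT3 and 0.20 for IFIT5. HERC5, the main human ligase for ISG15, and its relative HERC6 were at 0.17 and 0.27, and USP18, which removes ISG15, was at -0.04. SAMD9 and SAMD9L, which restrict poxvirus growth, were at 0.24 and 0.26 in the pooled comparison. EPSTI1 (0.10), GBP1 (-0.18), IFI35 (-0.19), IFI44 (-0.13), IFI6 (-0.18), DTX3L (-0.13), PARP9 (-0.16), SP100 (-0.21), TRIM21 (-0.29), MX1 (-0.51) and RSAD2 (-0.65) were not called in it.

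**Figure D2:**
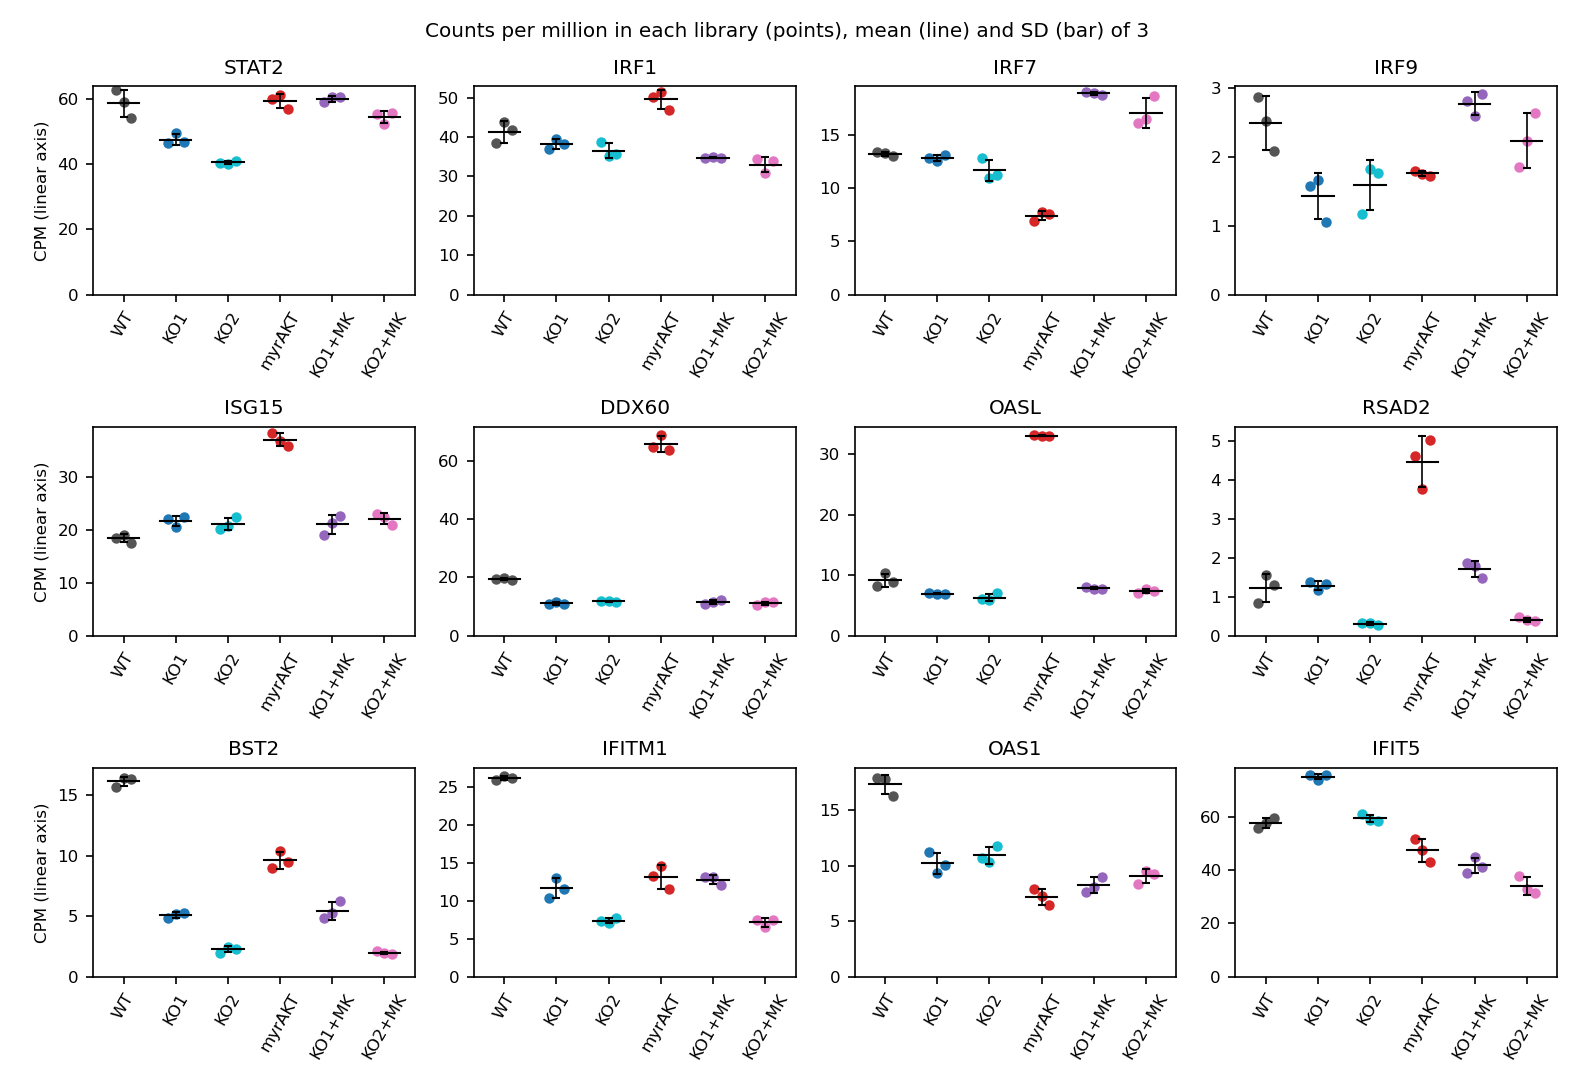
CPM of 12 members in each of the 18 libraries (points, linear axes from 0), with the mean (line) and SD (bar) of the 3 replicates of each group. STAT2 is lower in KO1 and KO2 than in WT, myrAKT or the MK2206 libraries, DDX60, OASL and RSAD2 are highest in myrAKT, and BST2 is highest in WT.

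Taken line by line, KO1 had 2 members higher and 16 lower than WT, against 20.5% and 21.3% of all genes. The count higher was 4 without WT replicate 2, when IFIT1 and IFIT2 were added. KO2 had 3 higher and 22 lower, against 20.8% and 22.2% of all genes. The members called lower in both lines numbered 16, namely BST2, DDX60, GBP2, IFI44L, IFIH1, IFITM1, IFITM2, IFITM3, ISG20, OAS1, OAS2, PARP14, STAT2, TRIM22, UBE2L6 and XAF1. These comparisons share the WT libraries, and the share of all genes called lower in both lines is not given here. The overlap is therefore a list and no measure of agreement between the lines. GBP1, MX1, OASL, RSAD2, SP100 and TRIM21 were called lower in KO2 but not in KO1, and HERC5, SAMD9 and SAMD9L were called higher in KO2 alone. IFIT3 (log2 0.51) and IFIT5 (0.36) were called higher in KO1 and not in KO2, where they were at 0.19 and 0.03. In KO2 the calls of GBP1, OASL, TRIM21, HERC5, IFI44L and PARP14 each ended without at least 1 library of KO2 or WT, whereas those of MX1, RSAD2, SP100, SAMD9 and SAMD9L were kept in all 6 fits.

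Whether the lines differed was tested directly, KO1 against KO2, with no WT library in the fit. In this comparison 11 members were higher in KO1 and 2 were higher in KO2, against 7.06% and 5.54% of all genes. RSAD2 (viperin), a radical SAM enzyme that makes a chain-terminating nucleotide, was at 1.37, 1.16 and 1.33 CPM in KO1 and 0.314, 0.334 and 0.272 in KO2. Its WT values of 0.848, 1.56 and 1.29 overlapped with KO1 and lay above KO2. The difference between the lines was 2.04 on the log2 scale (standard error 0.246, adjusted p = 6.88e-06), resting on 10 reads in the lowest library of the study.

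All 4 membrane proteins were higher in KO1 than in KO2, by 1.15 for BST2, 0.65 for IFITM1, 0.43 for IFITM3 and 0.25 for IFITM2 on the log2 scale. MX1, a dynamin-like GTPase that blocks viral nucleocapsids, was at 16.3, 16.2 and 15.9 CPM in KO1 and 10.8, 10.2 and 10.4 in KO2, with a difference of 0.62 (adjusted p = 6.02e-07). UBE2L6, IFIT2, IFIT3, IFIT5 and STAT2 were higher in KO1 by 0.37, 0.36, 0.33, 0.33 and 0.22. The STAT2 call ended whichever library was left out (highest adjusted p 0.00369), and that of IFITM2 without KO1 replicate 1 or KO2 replicate 1. In the other direction SAMD9L was at 12.1, 12.7 and 11.4 CPM in KO1 and 21.5, 18.2 and 18.7 in KO2 (log2 fold change -0.70), and its neighbour SAMD9 differed by -0.40. The 29 other members tested were not called between the lines. DDX60 had a log2 fold change of -0.09 with a 95% interval of -0.22 to 0.03, and ISG15 had 0.02 with an interval of -0.08 to 0.13.

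**Figure D3:**
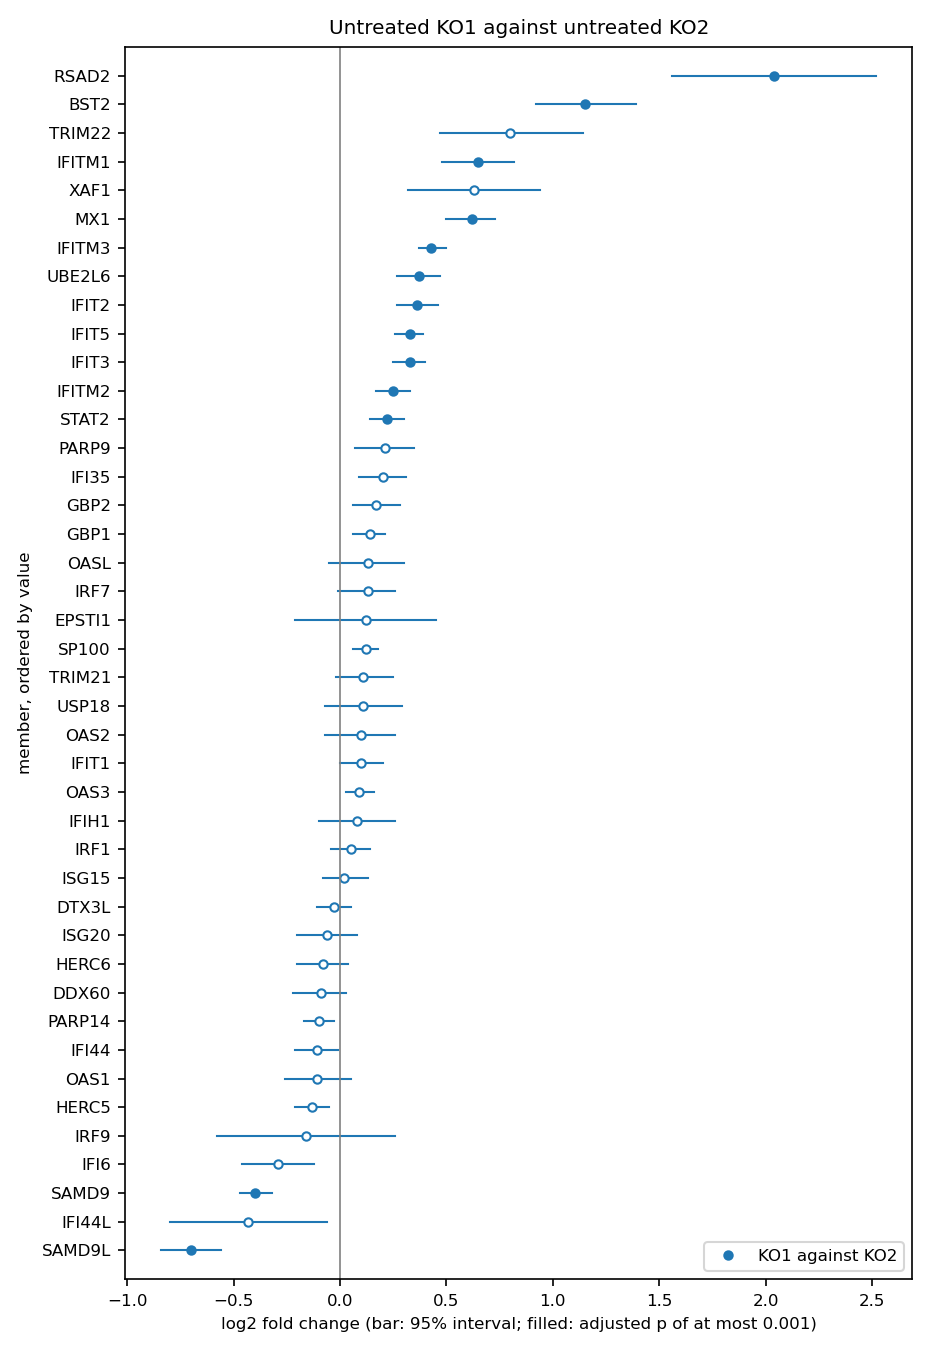
Log2 fold change between the untreated knockout lines for the 42 members tested (positive is higher in KO1), with 95% intervals and filled points at an adjusted p of at most 0.001. RSAD2 and BST2 lie farthest to the right at 2.04 and 1.15, and SAMD9L and SAMD9 are the filled points below 0.

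The next comparison asked which of these genes differ in cells with active AKT. In myrAKT cells 18 of 42 members were higher and 13 lower than in WT, against 12.7% and 17.3% of all genes, so 42.9% and 31% of the members were called. The median log2 fold change of the members was 0.07 and that of all genes 0.02. Under the alternative settings the median of the members ran from 0.067 to 0.156. Both RNA helicases, both SAMD9 genes, 3 of 4 IFIT genes and 3 of 5 genes of the ISG15 system rose, while all 4 membrane proteins, 2 of 3 GTPases and 2 of 3 genes in the group of TRIM21, TRIM22 and SP100 fell.

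DDX60 on chromosome 4 (168216291 to 168318883, minus strand) was at 19.5, 19.8 and 19.2 CPM in WT and 64.9, 68.9 and 63.9 in myrAKT cells. This rise of 3.36-fold (log2 1.75, standard error 0.0496, adjusted p = 3.18e-12) stands beside KO libraries of 10.8 to 11.9 CPM. OASL rose 3.61-fold, from 8.13, 10.3 and 8.89 to 33.1, 33 and 33 CPM (adjusted p = 1.3e-10). RSAD2 rose 3.61-fold as well, from values near 1 CPM to 4.62, 3.77 and 5.04 (adjusted p = 2.66e-06). IFI44 was at 18.7, 21 and 21.9 CPM in WT and 67.7, 61.4 and 66.7 in myrAKT cells, a rise of 3.16-fold (adjusted p = 7.27e-11), while its values in KO were 17.5 to 20.2. In each of these members the myrAKT libraries lay above all other libraries of the study.

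ISG15 was at 38.4, 36.8 and 35.9 CPM in myrAKT cells, a rise of 2-fold (log2 1.00, standard error 0.0543, adjusted p = 2.28e-09). IFI44L rose by 1.37 on the log2 scale, ISG20 by 1.18, SAMD9L by 1.05, IFIT1 by 0.93, HERC5 by 0.92, HERC6 by 0.84, IFIT2 by 0.83 and SAMD9 by 0.82. Smaller rises were those of IFI6 (0.67), IFIT3 (0.60), IFIH1 (0.48), PARP14 (0.38) and DTX3L (0.27), the last of which was not called without myrAKT replicate 2 (adjusted p = 0.00111). EPSTI1, at 0.44, was not called (adjusted p = 0.0348).

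OAS1 showed the largest fall, from 17.9, 17.8 and 16.3 to 7.9, 7.26 and 6.46 CPM (2.42-fold, log2 -1.28, standard error 0.0834, adjusted p = 1.51e-08). OAS3, in the same cluster on chromosome 12, fell by 0.24, and OAS2 had a log2 fold change of -0.28 (adjusted p = 0.0174). TRIM22 fell 2.28-fold to 2.25, 1.89 and 1.73 CPM (adjusted p = 1.96e-05). IFITM1 fell 2.01-fold to 13.2, 14.6 and 11.5 CPM (adjusted p = 4.55e-08). IFITM3 went from 285, 293 and 297 CPM in WT to 165, 173 and 149 in myrAKT, a fall of 1.81-fold (adjusted p = 6.84e-09), and the 3 groups WT, KO and myrAKT did not overlap except that KO2, at 170 to 185, reached the highest myrAKT library. BST2 was at 8.98, 10.4 and 9.45 CPM, between WT and KO, with a fall of 0.76 on the log2 scale.

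IRF7, called the master regulator of type I interferon genes, lies on chromosome 11 (612553 to 615983, minus strand) and was at 13.4, 13.3 and 13 CPM in WT and 6.91, 7.74 and 7.59 in myrAKT cells (1.79-fold lower, log2 -0.84, standard error 0.0794, adjusted p = 6.36e-07). STAT2 was at 60.1, 61.1 and 57.1 CPM in myrAKT cells and overlapped with WT (log2 0.01). IRF1 was at 50.2, 51.5 and 46.9 CPM, above all 3 WT libraries (log2 0.25, adjusted p = 0.00167), and IRF9 at 1.8, 1.76 and 1.73, below them (log2 -0.50, adjusted p = 0.0231). MX1 fell by 0.73, TRIM21 by 0.71, UBE2L6 by 0.68, IFITM2 by 0.65, GBP2 by 0.55 and IFIT5 by 0.29 on the log2 scale. The IFIT5 call ended when WT replicate 2 or 3 or myrAKT replicate 2 or 3 was left out (highest adjusted p 0.00638), and that of OAS3 without WT replicate 2 or 3 or myrAKT replicate 2. GBP1 (-0.30), IFI35 (-0.19), PARP9 (0.13), SP100 (-0.16), USP18 (0) and XAF1 (-0.67, adjusted p = 0.00204) were not called.

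**Figure D4:**
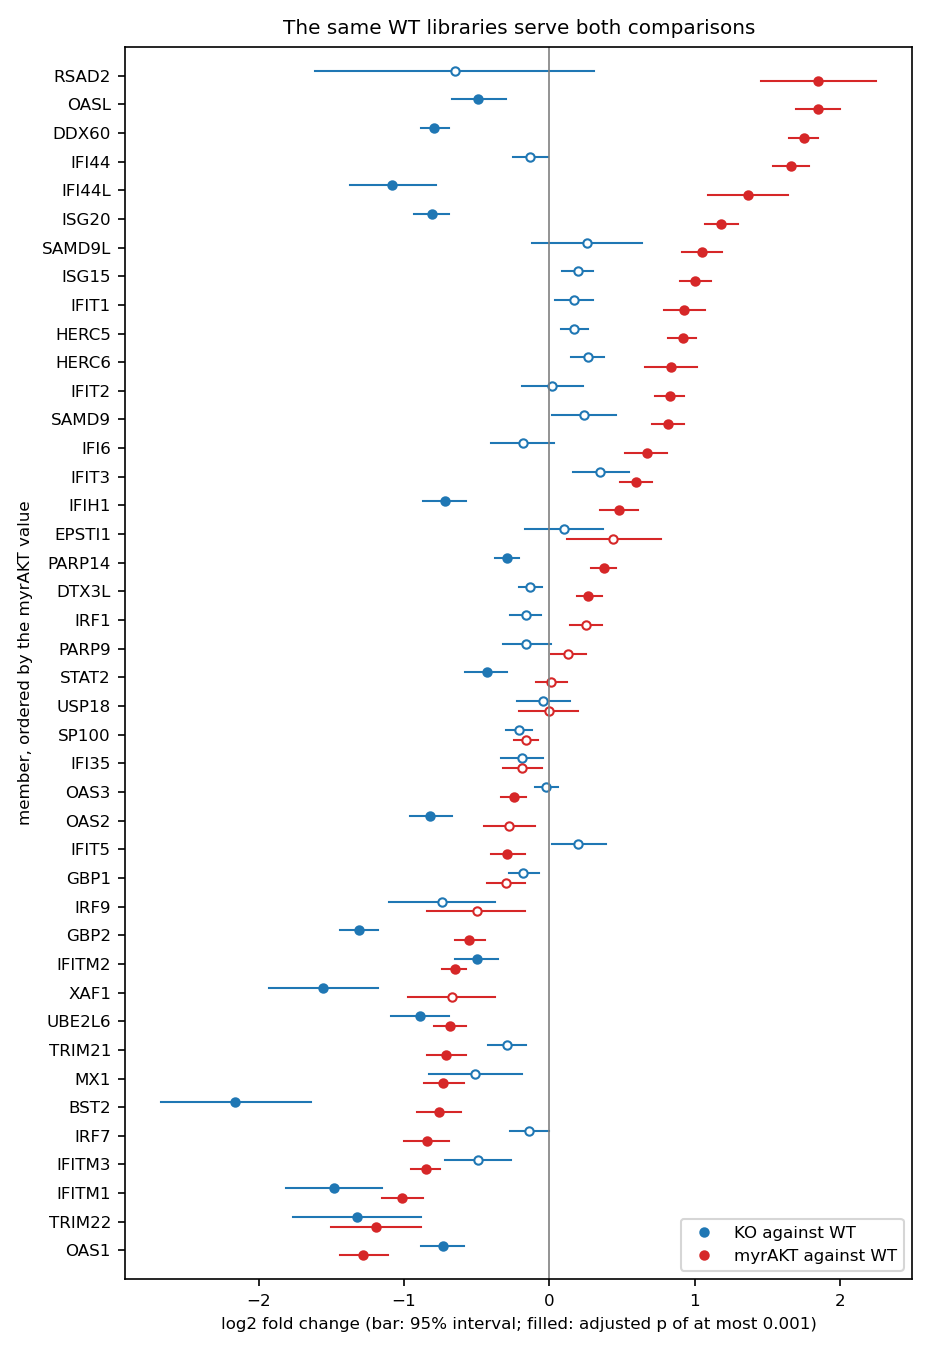
Log2 fold change of the 42 members in KO against WT (blue, 6 against 3 libraries) and myrAKT against WT (red, 3 against 3), with 95% intervals and filled points at an adjusted p of at most 0.001. RSAD2, OASL, DDX60 and IFI44 are at the red end above 1.6 with blue points below 0, and OAS1, TRIM22 and IFITM1 are below 0 in both.

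Set side by side, DDX60, IFI44L, IFIH1, ISG20, OASL and PARP14 were called lower in KO and higher in myrAKT cells. OASL was not called in KO1 alone, and the pooled KO calls of OASL and PARP14 ended in fits with a library omitted, as given above. BST2, GBP2, IFITM1, IFITM2, OAS1, TRIM22 and UBE2L6 were called lower in both KO and myrAKT cells. OAS2, STAT2 and XAF1 were called lower in KO and not in myrAKT, and DTX3L, HERC5, HERC6, IFI44, IFI6, IFIT1, IFIT2, IFIT3, ISG15, RSAD2, SAMD9 and SAMD9L were called higher in myrAKT and not in the pooled KO comparison. Of these, HERC5, SAMD9 and SAMD9L were called higher and RSAD2 lower in KO2 only, and IFIT3 was called higher in KO1 only. HERC5 in KO1 and IFIT3 in KO2 also lay above every WT library without being called. IFIT5, IFITM3, IRF7, MX1, OAS3 and TRIM21 were called lower in myrAKT and not in the pooled KO comparison, although IFITM3 was lower in each KO line alone and MX1 and TRIM21 in KO2. Both comparisons use the same WT libraries, so KO and myrAKT cells were also compared directly without them. In that comparison a lentiviral vector stands against a retroviral one, which cannot be told apart from loss of GPS2 or active AKT. Here 21 members were lower and 4 higher in KO than in myrAKT, against 16.7% and 19.1% of all genes. The largest differences were -2.54 for DDX60, -2.51 for RSAD2, -2.44 for IFI44L and -2.34 for OASL on the log2 scale. XAF1 (-0.89, adjusted p = 0.00223), SAMD9L (-0.79, adjusted p = 0.00234), IFIT3 (-0.25, adjusted p = 0.0408), IFIT5 (0.48, adjusted p = 0.00118), IFITM3 (0.35, adjusted p = 0.0239) and MX1 (0.21, adjusted p = 0.298) were not called in this direct test. With KO1 and KO2 as separate groups, these members other than MX1 were called, so their calls depend on how the lines are treated. OAS1 (0.54), IRF7 (0.70), TRIM21 (0.41) and OAS3 (0.22) were higher in KO, a count that fell to 1 without myrAKT replicate 2 or 3 and to 2 without KO1 replicate 3 or myrAKT replicate 1. STAT2 differed by -0.45 (adjusted p = 0.000109), a call that ended without myrAKT replicate 2. The RSAD2 call ended without any 1 of the 3 myrAKT libraries, with a log2 fold change of -2.73 to -2.33, and that of BST2 (-1.41) without these or KO2 replicate 2 or 3.

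The ISRE core was found both in members that rose and in members that fell. Of the 16 members with a window that rose in myrAKT cells, 14 held the core, as did 7 of the 9 that fell and 3 of the 9 that were not called. In KO against WT, 7 of 11 members that fell and 17 of 23 that were not called held it. Of the 9 groups of members that lie near each other, 1 held calls in opposite directions in myrAKT cells. This was the IFIT cluster on chromosome 10 from 89283694 to 89421605, where IFIT1, IFIT2 and IFIT3 rose and IFIT5, whose call ended in 4 of 6 fits with a library omitted, fell.

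MK2206 was used to ask which of these genes differ in knockout cells after 4 h with the AKT inhibitor. No solvent control is described for these cultures, so solvent and handling cannot be told apart from AKT inhibition. With both lines pooled, 3 members were higher and 3 lower in treated than untreated KO cells, against 12.8% and 8.75% of all genes, or 7.14% of the members in each direction. The median log2 fold change was -0.01. It ran from -0.091 to 0.025 under the alternative settings and moved beyond the replicate spread in 11 of 23, so its sign is not settled. IRF7, IFIH1 and STAT2 rose, and IFIT5, GBP1 and DTX3L fell. With the line as a covariate, 6 were higher and 10 lower, against 19.7% and 16.7% of all genes in that fit, and the additional members were GBP2, IFIT2, IFIT3, IRF9, OAS1, OAS3, PARP9, SAMD9, SAMD9L and SP100.

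STAT2 rose from 40.2 to 49.6 CPM in the untreated KO libraries to 59, 60.5 and 60.7 in KO1+MK and 55.5, 52.4 and 55.7 in KO2+MK. No treated library overlapped an untreated one, and the rise was 1.32-fold (log2 0.40, standard error 0.0568, adjusted p = 5.12e-05). IRF7 was at 12.8, 12.6 and 13.1 CPM in KO1 and 19, 18.9 and 18.8 in KO1+MK, and at 12.8, 11 and 11.2 in KO2 and 16.1, 16.5 and 18.7 in KO2+MK. It rose 1.5-fold (log2 0.58, standard error 0.0612, adjusted p = 3.56e-06). IRF9 was at 2.82, 2.59 and 2.91 CPM in KO1+MK and 1.85, 2.23 and 2.64 in KO2+MK, above the untreated KO range, but with an adjusted p of 0.00144 was not called. IRF1 was at 34.7, 34.9 and 34.7 CPM in KO1+MK and 34.3, 30.8 and 33.9 in KO2+MK (log2 -0.12, adjusted p = 0.0235).

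IFIH1 rose from 7.18, 7.39 and 6.82 to 11.3, 9.69 and 9.43 CPM in KO1 and from 7.51, 5.94 and 6.75 to 7.75, 8.66 and 9.19 in KO2. The groups were apart by a small margin in KO2, and the pooled call (log2 0.45, adjusted p = 0.000641) ended in 9 of 12 fits with a library omitted, with a highest adjusted p of 0.00188. The libraries in question were KO1 replicate 1, 2 or 3, KO2 replicate 2 or 3, KO1+MK replicate 2 or 3, and KO2+MK replicate 2 or 3.

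IFIT5 fell the most, from 75.9, 74.1 and 75.7 to 39.1, 45 and 41.4 CPM in KO1 and from 61.1, 58.9 and 58.6 to 37.8, 32.8 and 31.5 in KO2. Its treated levels lay below all WT libraries too, which ran from 56 to 59.5 CPM. The fall was 1.75-fold (log2 -0.81, standard error 0.0946, adjusted p = 9.62e-06). GBP1, a GTPase that coats bacteria and damaged vacuoles, went from 52.4, 51.7 and 53.7 to 38.9, 43.2 and 41.2 CPM in KO1 and from 48.1, 45.6 and 48.7 to 37.9, 33.8 and 33.3 in KO2. All treated libraries lay below the untreated ones, and the fall was 1.3-fold (adjusted p = 0.000222). DTX3L, a ubiquitin ligase that partners PARP9, went from 55.3, 60.2 and 59 to 47.6, 53.6 and 52 CPM in KO1 and from 58.1, 57.9 and 60.7 to 46.5, 49.9 and 48.6 in KO2, a fall of 0.21 on the log2 scale (adjusted p = 0.000385). The DTX3L call ended without KO1 replicate 2 or 3 or KO2 replicate 1 or 3 (highest adjusted p 0.00129).

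Within KO1 alone, 4 members were higher and 4 lower after MK2206, against 10.9% and 8.26% of all genes. Leaving out KO1 replicate 1 or 3 or KO1+MK replicate 2 lowered the count of rises to 2. Within KO2, 3 were higher and 5 lower, against 13.1% and 8.78%. IRF7 and STAT2 rose and GBP1, IFIT5 and SAMD9 fell in each line. GBP2 and IFIH1 were called higher and IFIT3 lower in KO1, and IFIT2 was called higher and DTX3L and SAMD9L lower in KO2. The GBP2, IFIH1 and SAMD9 calls in KO1 and the IFIT2 and DTX3L calls in KO2 each ended without at least 1 library. The difference between these responses was tested as an interaction, in which 0 members were called in either direction, against 0% and 0.0128% of all genes. That edgeR fit called 2 genes in all, and 3.3% and 4.73% of genes had an unadjusted p under 0.05 with a positive or a negative difference. Among the members, 2 had an unadjusted p under 0.05, namely IFIT2, with a difference of -0.20 on the log2 scale (adjusted p = 0.389), and SAMD9, with 0.20 (adjusted p = 0.3). DESeq2 also called 0 members.

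**Figure D5:**
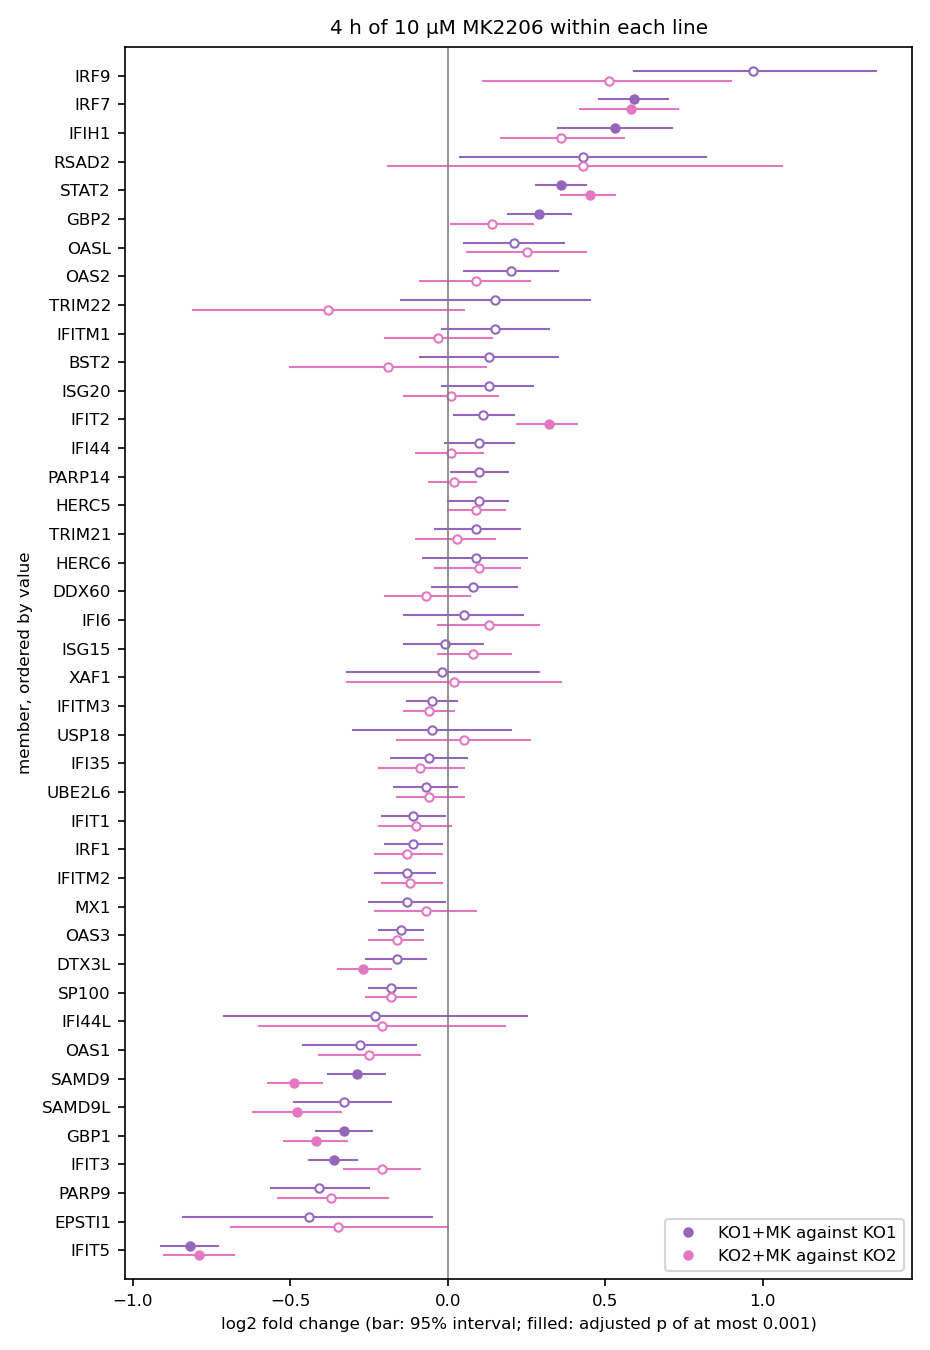
Log2 fold change after 4 h of 10 µM MK2206 within KO1 (purple) and within KO2 (pink) for the 42 members tested, ordered by the KO1 value, with 95% intervals and filled points at an adjusted p of at most 0.001. IFIT5 is lowest in both lines at -0.82 and -0.79, and IRF7 is at 0.59 and 0.58.

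The members called lower in KO cells were also followed after MK2206, in comparisons that share the untreated KO libraries. Of the 16 called lower in KO, 2 rose under the inhibitor, IFIH1 and STAT2, a share close to the 12.8% of all genes called higher, and 14 were not called in the pooled fit. The count was 1 in the 9 fits, listed above by library, in which IFIH1 lost its call. With the line as a covariate GBP2 was also called higher and OAS1 lower. Within KO1, 3 of the 16 members called lower in that line rose (GBP2, IFIH1 and STAT2), against 10.9% of all genes called higher there. Of these, the GBP2 and IFIH1 calls each ended without at least 1 library. Within KO2, 1 of 22 rose (STAT2), against 13.1% of all genes called higher there. BST2 was at 4.85, 5.22 and 6.24 CPM in KO1+MK and 2.08, 1.94 and 1.84 in KO2+MK. Its log2 fold change was 0.13 in KO1 with a 95% interval of -0.09 to 0.35, and -0.19 in KO2 with an interval of -0.50 to 0.12. DDX60 ran from 10.6 to 12.3 CPM in the 6 treated libraries, and the interval of its pooled log2 fold change was -0.09 to 0.10. ISG15 was at 19.1, 21.3 and 22.7 CPM in KO1+MK and 22.9, 22.4 and 20.9 in KO2+MK, overlapping with the untreated cells.

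Genes of the pathway outside the members were described from lists of receptors, factors, sensors, inhibitors and further interferon-stimulated genes. Their counts stand against 15.5% of all genes higher and 16.6% lower in KO, 12.7% and 17.3% in myrAKT, and 12.8% and 8.75% after MK2206. Of 9 receptor and kinase genes tested, 1 was higher and 4 lower in KO cells, and in myrAKT 4 were lower, with IFNLR1, a chain of the type III receptor, down by 1.01. After MK2206, 3 of them rose, among them IFNAR2 by 0.51. Of 6 further factors, KO cells had 1 higher and 3 lower, with BATF2 at -1.30 and IRF5 at -1.03, and myrAKT cells had 2 lower, with BATF2 at -1.12. Of 11 sensors and adaptors, 3 were lower in KO, while in myrAKT 2 were higher, RIGI (RIG-I) by 0.69 among them, and 4 were lower. Of 9 inhibitors, 4 were higher in KO, including TRIM24 at 0.59 and SOCS3 at 0.56, and 1 was lower, while in myrAKT the phosphatase gene PTPN6 fell by 2.17.

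Of 42 other interferon-stimulated genes tested, 7 were higher (16.7%, near the share of all genes) and 14 lower (33.3%) in KO, with a median log2 fold change of -0.19. In myrAKT 8 were higher and 8 lower, 19% each way, with a median of 0.04. MX2, which blocks nuclear import of viral genomes, fell by 1.35 in KO and GBP4 by 1.15, and TRIM26 and APOL2 rose by 0.83 and 0.62. In myrAKT cells TRIM26, APOL1 and APOL2 rose by 0.87, 0.76 and 0.74, and TNFSF10, the death ligand TRAIL, fell by 2.17. After MK2206, 5 were higher (11.9%, near the share of all genes) and 6 lower (14.3%), with STARD5 (0.66), HELZ2 (0.49) and TRIM26 (0.48) at the upper end and APOL3 (-0.53), GBP3 (-0.32), TRIM14 (-0.31) and TRIM56 (-0.28) at the lower end.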

How the data were processed

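RNA-Seq was analysed for 18 libraries from 6 groups of 3, grouped by the sample titles. Per the labels and the methods of the study, libraries were depleted of ribosomal RNA, sequenced as 1 pool on 2 paired-end NextSeq runs and processed with FastQC, Trim Galore, HISAT2 on hg38, featureCounts and MultiQC. The authors deposited raw read counts per Ensembl gene, with no normalization. Versions, the annotation, the strand setting and the rule for reads in several genes are not given in the sources used here.

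Genes that reached 1 CPM in 3 or more of the 18 libraries entered the tests in edgeR 4.0.16 (TMM, quasi-likelihood test, Benjamini-Hochberg adjustment over 15587 genes) in R 4.3.3, each comparison being fitted on its own libraries and called at an adjusted p of at most 0.001. CPM values are on TMM-scaled libraries of all 18 together, and intervals are 95%. One CPM corresponds to 24.1 to 38.9 reads per library. Alternatives were DESeq2 1.42.0, other size factors, filters and thresholds, 1 fit of all libraries, a replicate block, separate lines, a line covariate and the omission of each library. Positions came from GENCODE release 44 and promoter windows from RefSeq. The fits were tested on simulated data, and figures were drawn with matplotlib 3.10.9 in Python 3.11.15 (pandas 2.3.3, numpy 2.4.6).

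The members and pathway lists were chosen with earlier results of these data known. Values in every library are given for STAT2, IRF1, IRF7, IRF9, ISG15 and, in KO against WT, myrAKT against WT and KO+MK against KO, for the 4 largest rises and 4 largest falls among members called with at least 1 CPM in the higher group. Pathway genes were named where called, at most 4 per direction in these comparisons. Other members were named to account for the whole list, and the values per library of MX1 and SAMD9L, the level summaries and the promoters shown were chosen after their values were seen.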

Additional observations from a re-analysis of the deposited data

Results flagged for a closer look

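The 6 KO libraries and the 6 treated KO libraries were each examined for a library apart from its neighbours in the 19 members with values in every library, 38 sets in all, by the gap to the nearest library as a share of the range. For 6 libraries drawn from the same normal population, chance flags about 1 set in 20. Each set here pools both lines, so that rate is not exact, and a difference between the lines can hide a library apart. In 1 set the gap passed Dixon's 95% critical value, and there IRF1 was at 30.8 CPM in KO2+MK replicate 2, against 33.9 CPM in the nearest treated library, a gap of 0.756 of the range.

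The untreated knockout lines differed in 13 members by the direct edgeR test of KO1 against KO2. Over all genes, 7.06% were called higher in KO1 and 5.54% higher in KO2. The log2 fold changes of those higher in KO1 were 2.04 for RSAD2, 1.15 for BST2, 0.65 for IFITM1, 0.62 for MX1, 0.43 for IFITM3, 0.37 for UBE2L6, 0.36 for IFIT2, 0.33 for IFIT3, 0.33 for IFIT5, 0.25 for IFITM2 and 0.22 for STAT2. Those higher in KO2 were SAMD9L at -0.70 and SAMD9 at -0.40. Adjusted p values ran from 3.84e-08 for IFITM3 to 0.00053 for STAT2. KO1 and KO2 differ in guide set and are separate pools, which cannot be told apart here. The difference between the lines in their response to MK2206 was called in 0 of 42 members. That fit called 0% of all genes in 1 direction and 0.0128% in the other, so the 0 is not particular to the members.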

How the results depend on the processing

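Leaving out each library in turn, KO against WT gave 0 to 1 members higher and 11 to 15 lower, KO1 against WT 2 to 4 and 16 to 18, KO2 against WT 2 to 4 and 17 to 24, myrAKT against WT 17 to 19 and 11 to 14, KO+MK against KO 2 to 4 and 2 to 3, KO1+MK against KO1 2 to 5 and 4 to 6, KO2+MK against KO2 2 to 3 and 4 to 7, KO1 against KO2 9 to 11 and 2, and KO against myrAKT 1 to 5 and 17 to 22, while the difference of the MK2206 effects gave 0 and 0. The numbers of the replicates did not pair the libraries: the deviations of 45 same-numbered pairs correlated between -0.523 and 0.3, 12 of them above 0.1, and in 15 of the 45 the library matched its own number best. With the number as a replicate block, 12 members were lower in KO against WT, 11 lower and 18 higher in myrAKT against WT, 2 higher and 3 lower in KO+MK against KO, and 2 higher and 18 lower in KO against myrAKT. In KO against WT, members higher numbered 1 with no filter beyond 1 count, 2 with DESeq2, 3 with all 18 libraries in 1 fit, 5 with KO1 and KO2 as separate groups (23 lower) and 5 at an adjusted p of at most 0.05 (24 lower). At that p the counts higher and lower were 7 and 26 in KO1 against WT, 6 higher in KO2 against WT, 6 and 11 in KO+MK against KO, 11 lower in KO1+MK against KO1, 5 and 10 in KO2+MK against KO2, and 19 and 5 in KO1 against KO2. Separately, the main cut-off of 0.001 was kept and members also had to differ 1.5-fold or more. This left 0 members higher in KO1 and in KO2 against WT. Counts higher and lower were then 0 and 1 in KO+MK against KO and 1 and 1 in KO1+MK against KO1. They were 0 and 1 in KO2+MK against KO2 and 4 and 1 in KO1 against KO2. In KO against myrAKT, 1 member was higher. Without the filter, 5 members were higher in KO1 against WT, 5 lower in KO+MK against KO and 7 lower in KO1+MK against KO1. DESeq2 gave 7 lower in KO+MK against KO, and 1 fit of all libraries gave 6 and 10 there and 8 lower in KO2+MK against KO2, while the line as a covariate gave 6 and 10. Upper quartile factors gave 7 lower in KO1+MK against KO1, and library totals gave 2 higher in KO against myrAKT. The cause of these shifts was not tested. The other counts, 315 of 362, stayed within 1.5 times the main count, and no named member that was called changed direction under any alternative. Of 3438 values of named members, 103 were no longer called and 105 became called. Of 181 median log2 fold changes of the members under the alternatives, 45 moved by more than the spread between replicate libraries. Depth limits the members of few reads: RSAD2 and TRIM22 rested on as few as 10 and 22 reads in a library.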
